A study of Mus musculus with 2 samples.

Results

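Genes of 5 transcription regulators of mast cells and blood lineages, Mitf, Ikzf2, Gfi1b, Hic1 and Runx1t1, were compared between mast cells with and without Tet2. The genes were chosen by their role and with their RPKM in both libraries already known, so their differences are given as a description. All 5 are among the 8139 symbols with values. Mast cells were grown from the femoral marrow of C57BL/6 mice for 4 to 6 weeks in 10% serum, interleukin-3 at 10 ng/ml and stem cell factor at 5 ng/ml. One library came from wild type (WT) cells and 1 from Tet2-/- cells, both taken from cultures above 97.5% for FcɛRI+ c-Kit+ cells. Tet2 encodes a dioxygenase that oxidises 5-methylcytosine in DNA, and the series compares the transcriptomes with and without it. The labels do not state the number of mice behind each culture, their age and sex, or the kind of Tet2 allele.

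With 1 library per genotype there is no replicate check and no p-value. Values are RPKM, reads scaled to gene length and library size. Brackets hold exact 95% counting intervals, which hold the error of counting but no variation among cultures or mice. They rest on 31100000 fragments in WT and 31800000 in Tet2-/-, depths recovered from the spacing of low values. A log2 fold is the difference of log2(RPKM + 1), Tet2-/- minus WT, taken where the mean is at least 1 RPKM. It understates the change of low genes. A gene is called when this fold reaches 1 in either direction, by a fixed cut-off of size and not a test. Tet2 itself, Kit, Fcer1a and Ms4a2 were not analysed here. Of 16 mast cell markers 5 have values, which summed to 3373 RPKM in WT cells and 3515 RPKM in cells without Tet2, mostly Gzmb. They went both ways, with 3 intervals of the Tet2-/- to WT ratio above 1 and 2 below. Of 1738 coding genes averaging 1 RPKM or more, 51.8% had an interval beyond 1 in either direction. Fcer1g, the IgE receptor gamma chain gene, had a ratio of 0.736 (0.714 to 0.760), Slc18a2 0.859 (0.849 to 0.869), Cd55 1.34 (1.32 to 1.36) and Gzmb 1.13 (1.12 to 1.14). Smpx, at 2.52 (1.76 to 3.70), was called higher.

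The 5 proteins act at different layers of blood cell transcription. MITF is a basic helix-loop-helix leucine zipper activator required for mast cell development, which binds E-box sequences at mast cell genes. Helios (Ikzf2) belongs to the Ikaros zinc finger family, whose members recruit the NuRD remodelling complex. GFI1B is a zinc finger repressor of erythroid and megakaryocytic cells that recruits the histone demethylase LSD1 and CoREST. HIC1 is a BTB zinc finger repressor, named for a promoter that is hypermethylated in cancer. RUNX1T1, also called ETO, is a corepressor known as a fusion partner of RUNX1 in acute myeloid leukaemia.

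RefSeq promoter sequences (GRCm38.p6, the assembly of mm10) were at hand for 3 of the 5 genes, Mitf, Gfi1b and Hic1. Each window runs from 250 bases before to 50 bases after a start. The windows of Hic1, the lower gene of the set, are shown beside that of Gfi1b, which stood at nearly the same level in both libraries. They lie at chr11:75170206-75170505 and chr11:75168103-75168402 for Hic1 and at chr2:28621933-28622232 for Gfi1b, all on the minus strand. Capitals mark CG pairs, the sites at which mammalian DNA is mostly methylated.

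Hic1, first start: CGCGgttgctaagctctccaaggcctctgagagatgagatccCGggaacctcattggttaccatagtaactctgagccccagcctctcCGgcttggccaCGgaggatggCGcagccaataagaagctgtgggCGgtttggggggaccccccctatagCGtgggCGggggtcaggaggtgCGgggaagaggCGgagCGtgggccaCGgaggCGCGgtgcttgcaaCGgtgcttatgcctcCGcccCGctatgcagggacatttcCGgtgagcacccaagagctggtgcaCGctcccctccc

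Hic1, second start: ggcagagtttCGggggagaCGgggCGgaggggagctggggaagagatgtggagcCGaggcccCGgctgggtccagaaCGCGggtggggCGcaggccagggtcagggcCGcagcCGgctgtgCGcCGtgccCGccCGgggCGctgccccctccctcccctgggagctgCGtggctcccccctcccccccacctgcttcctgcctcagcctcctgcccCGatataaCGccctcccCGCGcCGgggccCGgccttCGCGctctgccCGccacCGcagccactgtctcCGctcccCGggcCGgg

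Gfi1b: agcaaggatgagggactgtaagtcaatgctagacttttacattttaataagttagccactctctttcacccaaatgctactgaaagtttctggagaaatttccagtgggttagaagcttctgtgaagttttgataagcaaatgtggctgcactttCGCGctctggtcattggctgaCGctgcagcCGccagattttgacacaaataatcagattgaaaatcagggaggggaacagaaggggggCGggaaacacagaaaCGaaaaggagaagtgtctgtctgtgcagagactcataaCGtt

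The Hic1 windows hold 20 and 29 CG pairs, more than 73.5% and 87.1% of the 32851 promoter windows, whose median is 7. The Gfi1b window holds 7. The 3 Mitf windows hold 22, 5 and 8 CG pairs from the most upstream start to the most downstream. Of short motifs searched on both strands, AATC, the core of the GFI1 site, occurs 4 times in the Gfi1b window and in neither Hic1 window, and 73.1% of all windows hold it. TGCCC, the core of the HIC1 site, occurs 4 times in the second Hic1 window and not in the first, against 53.5% of all windows with at least 1. The GATA factor site GATAA occurs once in the Gfi1b window and in no Hic1 window, against 25.4% of windows. The E-boxes CACGTG and CATGTG, held by 7.15% and 14.2% of windows, occur in none of the 6 member windows, and the RUNX site TGTGGT, held by 16.8% of windows, occurs once, in the first Mitf window. These are counts of letters. Methylation was not measured here, and no motif searched holds another within it.

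Among the 4 members averaging 1 RPKM or more, Hic1 stood furthest apart. Hic1 (chromosome 11, 75164565 to 75169519, minus strand, mm10) was at 9.65 RPKM (9.06 to 10.3) in WT cells and 2.72 RPKM (2.41 to 3.04) in cells without Tet2. The WT level was 3.55 times that of Tet2-/- (3.12 to 4.07), on an estimated 998 and 286 fragments, a log2 fold of -1.52. The level in Tet2-/- was thus well below that in WT, and the counting intervals did not meet. Of the 1769 coding genes that averaged 1 RPKM or more, 11 including Hic1 had a fold this low or lower. Hic1 has 1 coding transcript in the GENCODE basic set, so its fragment number does not depend on a choice within that set. RefSeq gives Hic1 more than 1 start, as shown above, and no other length was tried for it. With a pseudocount of 5 in place of 1 its log2 fold was -0.92, short of the call.

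Runx1t1 went the other way at a far lower level. Runx1t1 (chromosome 4, 13743436 to 13893649, plus strand) was at 0.222 RPKM (0.125 to 0.368) in WT cells and 1.04 RPKM (0.810 to 1.31) in cells without Tet2. The ratio of Tet2-/- to WT was 4.66 (2.64 to 8.74) on an estimated 15 and 71 fragments. With a mean of 0.629 RPKM it is the member that did not reach the filter, and its log2 fold of 0.74 shows how the added 1 RPKM shrinks a low gene's difference. With fragment numbers from its longest transcript the interval was 3.31 to 6.69. Weak genes differed often: of 194 coding genes averaging 0.25 to 1 RPKM, 56 (28.9%) had an interval above 1, 24 had one below 1, and 23, Runx1t1 among them, had a ratio at least as large as its own.

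Mitf, the regulator most closely tied to mast cell identity, was at 31.3 RPKM (29.2 to 33.4) in WT cells and 30.9 RPKM (28.9 to 33.0) in cells without Tet2. Its ratio of Tet2-/- to WT was 0.987 (0.899 to 1.09). The gene lies on chromosome 6, from 97807052 to 98021349 on the plus strand, and its 6 coding transcripts begin at several promoters used in different tissues. The deposited value is 1 per gene, so the mast cell and melanocyte forms cannot be told apart. Of the 1769 coding genes, 8.59% had a log2 fold closer to 0.

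Gfi1b (chromosome 2, 28609450 to 28621982, minus strand) was at 32.5 RPKM (30.9 to 34.2) in WT cells and 33.2 RPKM (31.6 to 34.9) in cells without Tet2. The ratio was 1.02 (0.953 to 1.10), so these libraries differed by less than the counting error. Ikzf2 (chromosome 1, 69531214 to 69687245, minus strand) was at 32.1 RPKM (30.1 to 34.2) in WT cells and 35.7 RPKM (33.7 to 37.9) in cells without Tet2. Its ratio of 1.11 (1.02 to 1.22) lay just above 1. With fragment numbers from its longest transcript the ratio interval was 1.08 to 1.15. The intervals of the 2 Ikzf2 levels, taken from its shortest transcript, overlapped. Of coding genes, 56.1% had a log2 fold closer to 0 than the 0.15 of Ikzf2. Ikzf2 overlaps the annotated antisense gene Gm29114 and Mitf the pseudogene Gm15531 on the opposite strand. Ikzf2 also overlaps the sense intronic genes Gm28112 and Gm29112 on its own strand. These overlaps are of whole gene bodies, introns included, and exons were not compared. Whether reads kept their strand is not stated, so reads from any stretch shared by opposite strands cannot be told apart.

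**Figure D1:**
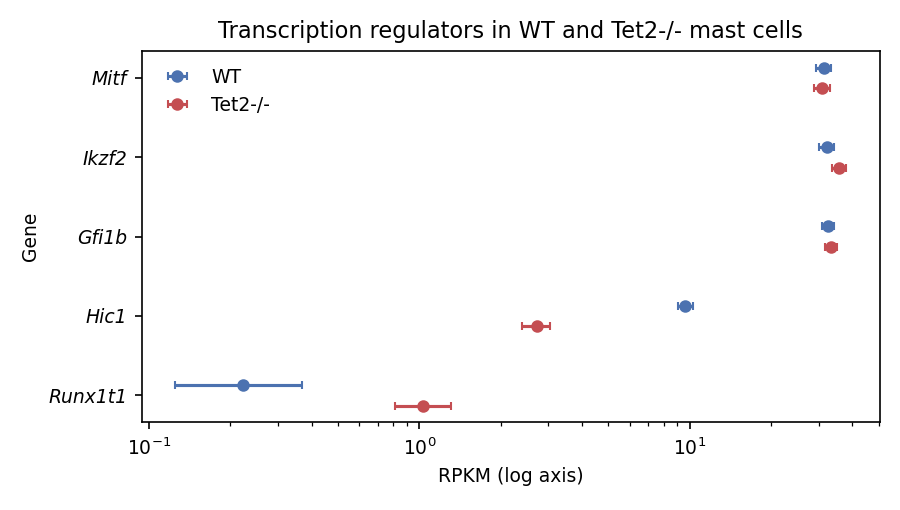
RPKM of the 5 genes (log axis) in the WT and Tet2-/- libraries, 1 library each. Points are the deposited values and bars exact 95% counting intervals. Mitf, Ikzf2 and Gfi1b lie between 30.9 and 35.7 RPKM in both libraries, Hic1 is lower and Runx1t1 higher in Tet2-/-.

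By level the 5 genes formed the same tiers in both libraries. In WT, Gfi1b, Ikzf2 and Mitf lay within each other's counting intervals and above 70.7% to 71.96% of coding genes averaging 1 RPKM or more. Hic1 stood above 32.6% of those genes in WT, and Runx1t1 was below all of them. In Tet2-/- the order at the top was Ikzf2, Gfi1b and Mitf, with overlapping intervals between neighbours in that order, but not between Ikzf2 and Mitf. All these intervals rest on fragment numbers from the shortest coding transcript of each gene. Hic1 was nearer to Runx1t1 than in WT, at 2.72 against 1.04 RPKM.

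Of the 4 members with a mean of at least 1 RPKM, 1 (Hic1) was called lower and 0 higher. Over all 2107 models with such a mean, 1.61% were called lower and 2.90% higher. Of these 4 members 2, Hic1 and Ikzf2, had an interval beyond 1, as did 51.8% of 1738 coding genes averaging 1 RPKM or more. Runx1t1, whose interval also lay above 1, averaged less than 1 RPKM, and 28.9% of the 194 coding genes averaging 0.25 to 1 RPKM had such an interval. The median log2 fold of the 4 members was 0.0067, against 0.0092 over all models past the filter.

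**Figure D2:**
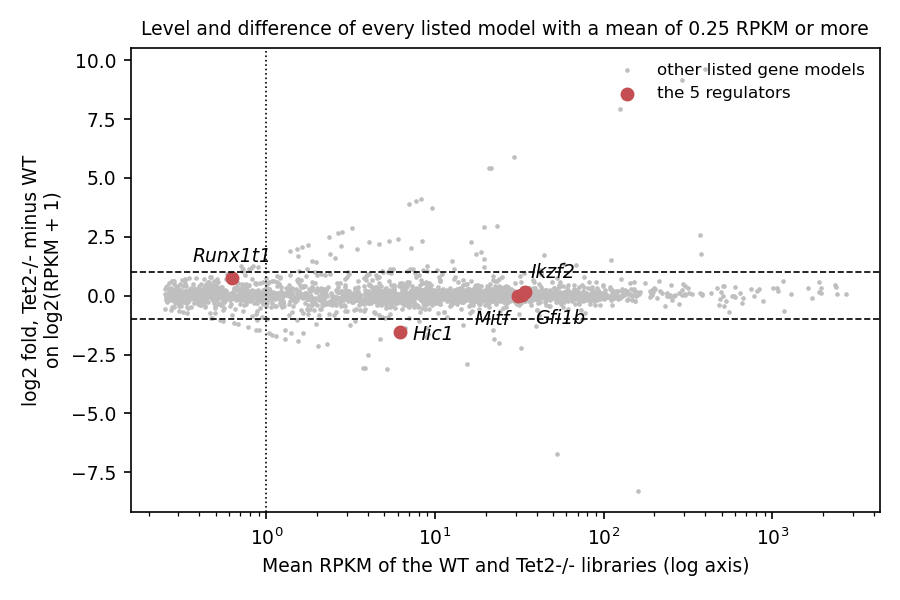
Mean RPKM of both libraries (log axis) against the log2 fold of every listed model with a mean of 0.25 RPKM or more, 1 grey point each, with the 5 regulators in red. Dashed lines mark a log2 fold of 1 in size and the dotted line a mean of 1 RPKM. Hic1 lies below the lower line at -1.52 and Mitf, Ikzf2 and Gfi1b lie near 0.

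Relatives, partners and targets of the members are on 11 further lists, written with earlier results of these data known. They hold 151 genes that are not members. Of these 27 have values and 20 passed the filter. Of the 20, 0 were called higher and 0 lower, against 2.90% and 1.61% of all 2107 models past the filter. The log2 folds of the 20 ran from -0.24 (Lmo2) to 0.27 (Cebpb) with a median of 0.03. All 20 were within 1.5-fold on that scale, as were 90.6% of all models past the filter. Counting intervals lay above 1 for 8 of the 20, below 1 for 6 and included 1 for 6. Of 1738 coding genes averaging 1 RPKM or more, 51.8% had an interval beyond 1 in either direction.

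For MITF, none of the sister genes Tfe3, Tfeb and Tfec was analysed here. Of 30 targets and granule genes 7 have values and 3 passed the filter. Gzmb, which encodes granzyme B, was at 1770 RPKM in WT cells and 1994 RPKM in cells without Tet2, and Slc18a2, the vesicular monoamine transporter, at 572 and 491 RPKM. Ncoa2, a nuclear receptor coactivator, was at 16.2 and 16.6 RPKM, so these 3 went in both directions by small amounts. The pigment cell genes Tyrp1 and Slc45a2 were listed at 0.01 in both libraries, the value read as no reads, while Tyr and Pmel stayed at or below 0.400 RPKM.

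For the Ikaros family, Ikzf3 (Aiolos) was listed at 0.01 in WT and at 0.108 RPKM in Tet2-/-, far below Ikzf2. Of 13 NuRD subunits 5 have values and all 5 passed the filter, with a median log2 fold of -0.05. The remodeller gene Chd3 was at 165 RPKM in WT cells and 140 RPKM in cells without Tet2, and Mbd3, which joins the complex, at 59.9 and 50.7 RPKM. Both intervals lay below 1, at 0.834 to 0.862 and 0.783 to 0.916. The intervals of Mta1, Mta2 and Rbbp7 included 1, with Mta2 at 74.2 and 75.4 RPKM.

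The GFI1 and CoREST list has 4 of 12 genes, with a median log2 fold of 0.01. Rcor1, the CoREST scaffold, was at 38.9 RPKM in WT cells and 43.7 RPKM in cells without Tet2. Ehmt2, a histone H3 methyltransferase gene, was at 78.4 and 78.0 RPKM. Of 16 GFI1B targets, Bcl2l1, the gene of the survival protein BCL-XL, was at 24.7 and 28.9 RPKM, for a Tet2-/- to WT ratio of 1.17 (1.09 to 1.26).

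HIC1 represses transcription with the corepressor CtBP, and Sirt1 is among its known targets. The list has 4 of 18 genes, with a median log2 fold of 0.08. Sirt1 was at 9.14 RPKM in WT cells and 10.4 RPKM in cells without Tet2, for a Tet2-/- to WT ratio of 1.14 (1.04 to 1.25). Ctbp1 was at 91.7 and 97.7 RPKM, for a Tet2-/- to WT ratio of 1.07 (1.03 to 1.11). E2f1, a cell cycle factor gene, was at 16.0 and 14.9 RPKM and Mta1, a HIC1 partner from NuRD, at 20.1 and 21.02 RPKM, both with intervals that included 1. Against the 3.55-fold difference of Hic1 itself, these genes differed by at most 1.14-fold.

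Runx1t1 is the 1 gene with values of 15 on the list of the ETO family and its corepressors, and none of the 4 RUNX and core binding factor genes was analysed here. Of the 14 genes of the GATA, SCL and LMO2 complex 3 have values. The bridging factor genes Lmo2 and Ldb1 read 16.2 and 109 RPKM in WT cells, against 13.5 and 103 RPKM without Tet2, and Tcf12, the gene of an E-protein, 25.5 and 27.6 RPKM. Of 36 other myeloid factors, Cebpb was at 4.48 and 5.59 RPKM and Etv6, an ETS repressor, at 20.4 and 24.6 RPKM.

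**Figure D3:**
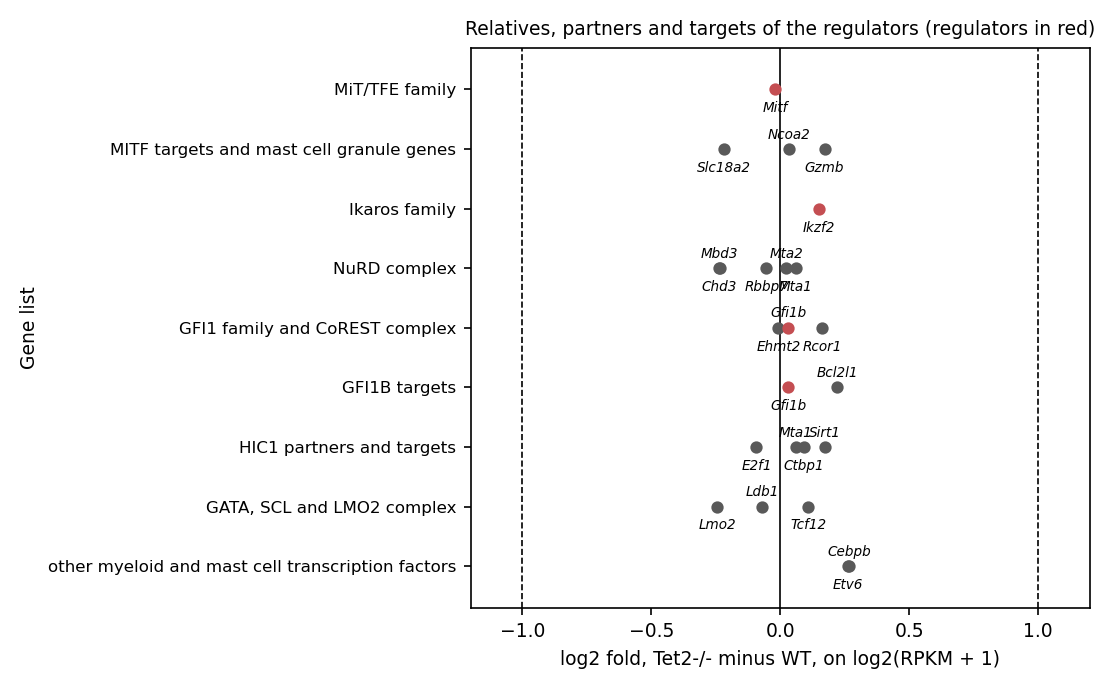
Log2 fold of genes past the filter on 9 lists of relatives, partners and targets, 1 point per gene in 1 library per genotype, with the regulators in red. Dashed lines mark a fold of 1 in size. Every point lies between -0.24 and 0.27.

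Around Hic1, 6 of 24 coding genes within 500 kb have values. The window runs between the bodies of the genes, while the distances given are between start sites and can be larger. Sgsm2, a RAB GTPase regulator gene whose start lies 272 kb downstream, was at 15.7 RPKM in WT cells and 7.88 RPKM in cells without Tet2, for a Tet2-/- to WT ratio of 0.501 (0.466 to 0.538). Wdr81, 285 kb upstream, had a ratio of 0.782 (0.741 to 0.826). Sgsm2 and Wdr81 were thus lower in Tet2-/- than in WT, though neither as far as Hic1 nor past the fold used for calls. An interval beyond 1, in either direction, was also held by 51.8% of the 1738 coding genes averaging 1 RPKM or more.

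At larger distances, of 445 to 520 kb, Inpp5k, Pafah1b1 and Cluh had ratios of 0.997, 0.998 and 1.06 with intervals that included 1. Serpinf1, 253 kb upstream, had a ratio of 0.448 on few fragments, with an interval of 0.0381 to 2.45. Around Gfi1b, Tsc1, whose start lies 19.2 kb upstream, had a ratio of 0.979 (0.922 to 1.04). The 1 listed coding neighbour each of Mitf and Ikzf2 was at 0.01 in both libraries, and Runx1t1 had no coding gene within the window.

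**Figure D4:**
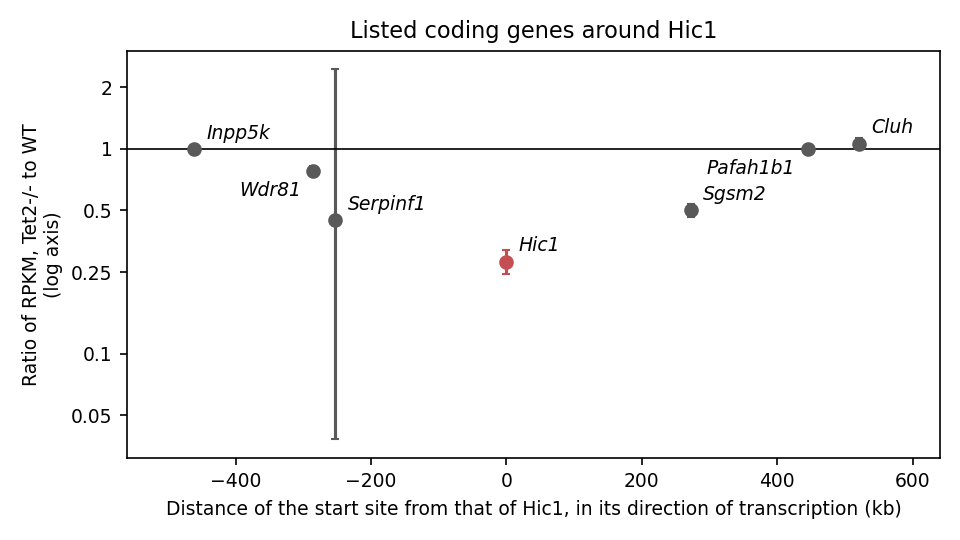
Ratio of RPKM in Tet2-/- to WT (log axis) of Hic1 (red) and the 6 listed coding genes around it (grey), by distance from its start in kb, positive downstream. Bars are 95% counting intervals. Hic1 stands at 0.281, Sgsm2 at 0.501 and Wdr81 at 0.782, while Inpp5k, Pafah1b1 and Cluh lie near 1.

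The genes nearest to each member in log2 RPKM over the 2 libraries were found among 2163 other coding genes. Hic1 had no close match: Otop1, a proton channel gene at 10.0 RPKM in WT cells and 3.27 RPKM in cells without Tet2, lay at a distance of 0.274, and Qprt, an enzyme gene of NAD synthesis at 6.66 and 3.07 RPKM, at 0.564. Runx1t1 was nearest to Ephx4, an epoxide hydrolase family gene at 0.203 and 0.969 RPKM, and to the macrophage scavenger receptor gene Msr1 at 0.200 and 0.944 RPKM. For Mitf the nearest were Ubn1 and Ccndbp1, for Ikzf2 Nup153 and Gtf3c2, and for Gfi1b Arfgap2 and Ankrd27. All these lay at distances below those of Hic1.

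Markers of other myeloid cells were mostly higher in Tet2-/-, as was Runx1t1. All 5 listed of 13 macrophage and monocyte markers had intervals above 1. Of coding genes averaging 0.25 to 1 RPKM, as all of these but Ly6c2 did, 28.9% had such an interval. Of coding genes averaging 1 RPKM or more, as Ly6c2 did, 51.8% had one beyond 1 in either direction. The summed level of the 5 markers was 0.985 RPKM in WT cells and 23.4 RPKM in cells without Tet2, most of it Ly6c2. Without Ly6c2 they ranged from 0.0802 to 0.200 RPKM in WT and from 0.775 to 1.51 RPKM in Tet2-/-, beside 0.222 and 1.04 RPKM for Runx1t1. The 3 listed of 11 neutrophil markers summed to 1.12 and 10.1 RPKM, with Csf3r at 0.01 in both. Most of that sum was Ly6g, at 1.10 and 9.61 RPKM, which has no counting interval. The 2 listed of 8 eosinophil markers summed to 0.829 and 2.27 RPKM. Ear2, at 0.117 and 1.45 RPKM, had an interval above 1. Il5ra, at 0.712 and 0.820 RPKM, had one that included 1 (0.715 to 1.89). In bulk RNA, more cells of a type and more RNA per cell cannot be told apart. The part of such cells in the Runx1t1 difference was not tested.

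Lineages in which Gfi1b and Ikzf2 are also known gave few markers. Of 13 erythroid markers 1 has values, the embryonic globin gene Hbb-y, at 2.22 RPKM in WT cells and 12.1 RPKM in cells without Tet2. The 2 listed of 11 platelet markers were at or below 0.0585 RPKM. Of 15 lymphocyte and regulatory T cell markers, Cd79a was at 0.0250 and 0.147 RPKM, while Il2ra, the gene of CD25, was at 4.84 and 1.47 RPKM. Il2ra thus moved in the direction of Hic1, the WT level being 3.30 times that without Tet2 (2.28 to 4.84). The basophil marker Mcpt8 was at 56.1 and 163 RPKM. The part of such cells in the Hic1 difference was not tested.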

How the data were processed

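The authors deposited 1 table of RPKM, per the file headers, 1 column for each genotype, on mm10, as the submitters' processing notes record. The sources used here name no aligner, counter or annotation. RPKM removes gene length and library size, but a few abundant RNAs can lower all others. The value 0.01, held by 58.1% of models in WT and 57.4% in Tet2-/-, was read as no reads, an uncertain reading since 67 and 80 models lie below it. A TruSeq RNA kit was used, per the labels' protocols.

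Of the 8139 symbols, 7861 matched GENCODE mouse release 21. Depth was the number of fragments at which RPKM times length, less 170 bases in WT and 180 in Tet2-/-, came within 0.1 of a whole number for most single-transcript genes (95.2% of 357 and 96.1% of 381, where even spacing gives 20%). Fragments were taken from the shortest coding transcript of the basic set, if at least 400 bases, and ratios have Clopper-Pearson intervals. Levels have exact Poisson intervals. Members, lists and rules were chosen with earlier results of these data known. Genes named were the members, listed genes of the lists (up to 6 a list by mean, plus any past 2-fold), the 2 nearest in level to each member, and listed coding genes within 500 kb. Msr1, Ly6c2, Csf3r and other markers were to be given as counts and ranges, and those named were picked after their values were seen. Single values of some list genes are not reported here, although they stay in the counts and medians. Folds used a pseudocount of 1 and a mean of at least 1 RPKM, and the calculation was tested on simulated data. Alternatives were other pseudocounts, filters, thresholds, scaling and transcript lengths. Computation used scipy 1.17.1, pandas 2.3.3 and numpy 2.4.6 under Python 3.11.15, with plots by matplotlib 3.10.9.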

Additional observations from a re-analysis of the deposited data

How the results depend on the processing

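The main counts were 61 models called higher and 34 lower, with 1 member, Hic1, past 2-fold. A pseudocount of 5 gave 33, 14 and 0, a 4-fold threshold 27, 10 and 0, and a pseudocount of 0.1 with no filter, added after seeing the data, 236, 167 and 2, the second member being Runx1t1. A mean of at least 5 RPKM gave 40 and 16, a 1.5-fold threshold 123 and 76, and coding genes alone 30 and 16, each with 1 member. The log2 fold of Hic1 was -1.79 with a pseudocount of 0.1 and -0.92 with 5, and that of Runx1t1 1.82 and 0.21. Over 71 genes named or on a list, 172 alternative log2 folds stayed within counting error (without an estimate, within 1.5-fold) while 41 moved when the pseudocount was changed. No sign changed (0 of 71 genes), which a pseudocount cannot cause anyway. All 42 alternative medians of lists with at least 3 genes past the filter stayed within 1.5-fold. That of the 4 members past the filter, 0.0067, turned to -0.0028 under median-ratio scaling. No paired analysis was possible because there is a single library of each genotype, so none could be left out either. Depth limits Runx1t1 most, at 15 fragments in WT.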

Other observations

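Of the relatives, partners and targets, 7 lay below the filter, a group picked out after the values were seen. Of these, 3 had a counting interval of the Tet2-/- to WT ratio above 1, 2 had one that included 1, and 2 were at 0.01 in both libraries. Of the 194 coding genes averaging 0.25 to 1 RPKM, 28.9% had an interval above 1. Thbs1, which encodes the matrix glycoprotein thrombospondin, read 0.0636 RPKM in WT cells and 0.149 RPKM in cells without Tet2, for a Tet2-/- to WT ratio of 2.34 (1.15 to 5.37).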
